A study of Mus musculus with 16 samples.

Results

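The genes described here encode the chaperones and heat shock proteins of the mouse oocyte. They were taken by symbol from the expression table, as every gene whose name begins with Hspa, Hspb, Hspd, Hspe, Hsph, Hsp90, Dnaja, Dnajb or Dnajc and a digit, or Cct2 to Cct8, without use of any measured value. The rule found 83 of 25965 genes. They comprised 2 genes for cytosolic Hsp90, 11 for cytosolic Hsp70 and Hsp110 and 9 for the CCT chaperonin. Another 6 encode chaperones of the endoplasmic reticulum and mitochondria, 45 are DnaJ genes and 8 were counted by symbol alone as small heat shock protein genes. The last 2, Hspbp1 and Hspbap1, are named after proteins that bind or associate with heat shock proteins. The oocytes were wild-type, from C57BL/6 mice (C57BL/6Babr in the study's methods), and were sorted by diameter during the growth phase that precedes meiotic maturation. RNA-seq libraries were made in duplicate (A and B) from pooled oocytes of 10–30 µm (postnatal days 5 to 7), 40–45 µm (days 7 to 12), 50–55 µm (days 9 to 14) and 60–65 µm (days 13 to 16), and 1 column of values was deposited for fully grown germinal vesicle (GV) oocytes of day 20. Size and age of the animal rose together and cannot be told apart. DNA methylation was measured by reduced representation bisulphite sequencing (RRBS, which samples CpG-rich sequence) in duplicate for the 3 larger classes of growing oocytes and by post-bisulphite adapter tagging (PBAT, which samples the whole genome) in 1 library at 60–65 µm.

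Chaperones bind unfolded or partly folded proteins and release them for folding, mostly in cycles driven by ATP. Hsp70 proteins are loaded with their clients by DnaJ proteins, Hsp90 acts later on kinases, receptors and other clients, and the CCT complex is a double ring of related subunits that folds actin and tubulin. A few of the genes, such as Hspa1a, Hspa1b, Hspb1 and Dnajb1, are known for induction by heat shock factor, which binds heat shock elements, while Hspa5, Hsp90b1, Dnajb9 and Dnajc3 are known targets of the unfolded protein response of the endoplasmic reticulum. The growing oocyte stores RNA and protein for the early embryo, and members of the Hsp70 and Hsp90 families are known to be abundant in it.

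The promoters of the genes that the results turn on are shown first, because they hold the elements through which heat shock and stress of the endoplasmic reticulum are known to act. Genes with such an element went both ways in the data. RefSeq promoter sequences (GRCm38.p6, from 250 bases before to 50 bases after the annotated start) were matched by symbol for 68 of the 83 genes. Cct4, Dnajc2, Dnajc5, Dnajc5b, Dnajc11, Dnajc12, Dnajc18, Dnajc22, Dnajc30, Hsp90aa1, Hsp90ab1, Hspa8, Hspa9, Hspa13 and Hspb2 had no entry. The heat shock element was searched on both strands as 2 units, GAANNTTC or TTCNNGAA, and as 3 units, GAANNTTCNNGAA or TTCNNGAANNTTC, each of which contains the 2-unit form. In the 4 promoters below, from 5′ to 3′, capitals mark the 2-unit matches, which run together in Hspe1.
Hspa1a (chr17:34972107-34972406, minus strand): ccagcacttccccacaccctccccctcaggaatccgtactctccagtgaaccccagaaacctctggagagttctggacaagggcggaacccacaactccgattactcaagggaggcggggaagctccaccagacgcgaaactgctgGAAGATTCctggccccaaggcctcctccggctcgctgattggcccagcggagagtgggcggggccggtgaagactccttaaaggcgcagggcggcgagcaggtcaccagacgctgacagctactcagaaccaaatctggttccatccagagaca
Hspa1b (chr17:34959189-34959488, minus strand): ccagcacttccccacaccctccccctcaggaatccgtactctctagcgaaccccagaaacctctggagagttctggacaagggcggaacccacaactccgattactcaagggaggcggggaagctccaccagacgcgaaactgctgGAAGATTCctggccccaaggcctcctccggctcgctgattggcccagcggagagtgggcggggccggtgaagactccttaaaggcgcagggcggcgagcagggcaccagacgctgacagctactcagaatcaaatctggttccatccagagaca
Hspb1 (chr5:135887669-135887968, plus strand): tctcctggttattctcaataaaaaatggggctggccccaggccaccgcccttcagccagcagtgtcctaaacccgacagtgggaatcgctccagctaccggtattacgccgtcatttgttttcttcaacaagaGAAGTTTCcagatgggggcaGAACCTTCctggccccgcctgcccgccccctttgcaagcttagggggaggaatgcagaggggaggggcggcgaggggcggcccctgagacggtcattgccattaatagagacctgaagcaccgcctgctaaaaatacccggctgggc
Hspe1 (chr1:55087898-55088197, plus strand): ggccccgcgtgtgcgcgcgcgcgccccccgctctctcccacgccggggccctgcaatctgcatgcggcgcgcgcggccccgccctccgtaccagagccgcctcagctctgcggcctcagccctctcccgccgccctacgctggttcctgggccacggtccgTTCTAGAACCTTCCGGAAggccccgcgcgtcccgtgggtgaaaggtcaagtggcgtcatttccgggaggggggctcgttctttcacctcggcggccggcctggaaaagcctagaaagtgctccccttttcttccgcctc
The element began 104 bases before the start in both Hspa1a and Hspa1b, whose windows were identical at 296 of 300 bases (98.7%). It began 117 and 97 bases before the start in Hspb1. Hspe1, the mitochondrial cochaperonin, had overlapping 3-unit elements that began 89 and 84 bases before its start, in sequence that lies within the divergent gene Hspd1. A 2-unit element was present in 15 of the 68 promoters (22.1%), against 15.1% of all 27025 promoters. A 3-unit element was present in 3 (Dnajb6, Hspe1 and Hsph1, 4.41%), against 0.54% of all promoters.

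The endoplasmic reticulum stress element was searched as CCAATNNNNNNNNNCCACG on both strands, so that each match also holds a CCAAT box. It was found in 3 of the 68 promoters (4.41%), against 0.126% of all promoters and 0.232% of those of genes tested for expression. The 3 genes were Hspa5 and Hsp90b1, the Hsp70 and Hsp90 of the endoplasmic reticulum, and Dnajc3, a DnaJ protein of that compartment. Capitals mark the element, which occurs a further time, on the other strand, in Hsp90b1.
Hspa5 (chr2:34771840-34772139, plus strand): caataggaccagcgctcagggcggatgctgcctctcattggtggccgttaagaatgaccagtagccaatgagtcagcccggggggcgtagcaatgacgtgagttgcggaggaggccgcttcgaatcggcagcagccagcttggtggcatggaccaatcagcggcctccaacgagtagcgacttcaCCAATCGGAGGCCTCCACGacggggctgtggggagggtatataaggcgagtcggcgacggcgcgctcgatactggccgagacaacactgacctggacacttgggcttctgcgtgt
Hsp90b1 (chr10:86705395-86705694, minus strand): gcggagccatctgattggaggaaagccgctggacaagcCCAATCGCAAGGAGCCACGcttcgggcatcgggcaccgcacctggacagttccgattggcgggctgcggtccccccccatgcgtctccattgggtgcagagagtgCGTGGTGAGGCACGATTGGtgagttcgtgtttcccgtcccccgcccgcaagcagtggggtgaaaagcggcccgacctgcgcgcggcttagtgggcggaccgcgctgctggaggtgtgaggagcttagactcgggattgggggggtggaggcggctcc
Dnajc3 (chr14:118937682-118937981, plus strand): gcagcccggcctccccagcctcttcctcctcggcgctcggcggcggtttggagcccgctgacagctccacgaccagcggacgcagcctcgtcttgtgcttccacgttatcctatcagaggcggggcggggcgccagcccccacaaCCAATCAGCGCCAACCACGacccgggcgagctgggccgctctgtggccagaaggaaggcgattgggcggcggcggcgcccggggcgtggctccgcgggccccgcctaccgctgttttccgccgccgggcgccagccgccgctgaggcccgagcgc
These matches describe the letters of a window and were not measured as bound sites.

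Expression was deposited as RPKM, reads scaled by exon length and by the size of the library, so that each value is relative to the rest of its library. The amount of RNA per oocyte was not measured, and in pooled oocytes fewer cells that use a gene and less RNA per cell cannot be told apart. Values given below are RPKM as deposited, while log2 changes, with their standard error (SE), are of RPKM plus 0.1 after a further scaling by factors from 0.956 to 1.05. A gene was tested where it reached 0.5 RPKM in any 2 of the 8 growing-oocyte libraries. The test was that of limma, with Benjamini-Hochberg adjustment over all 10518 genes tested and a threshold of 0.05, and "rose" and "fell" below mean past this threshold. The p-values measure the spread between 2 libraries a class, made from pools of oocytes, which may be partly technical. Of the 83 genes, 59 passed the filter and 24 did not. Hspa1a alone among the 59 was below 0.5 RPKM in both libraries of 10–30 µm and passed through the later classes, in which it was higher, so that its rise is no support for a count it enters. Of those 24, 5 were at 0 in all 9 columns (Cct8l1, Dnajb7, Dnajb8, Hspb2 and Hspb9), and the highest value was 0.773 RPKM, for Dnajc5b in GV oocytes.

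The chaperone genes made up a falling share of the RPKM of the library. It was 1.34% and 1.39% in the 10–30 µm libraries, 1.30% and 1.32% at 40–45 µm, 1.13% and 1.17% at 50–55 µm, 0.985% and 1.03% at 60–65 µm and 0.915% in GV oocytes. The classes of growing oocytes did not overlap in this share. A large part of it came from a few genes, with Hsp90aa1 alone giving between 24.2% and 30.4% of the chaperone RPKM in each library. The 5 genes of highest mean level, Hsp90aa1, Hspa8, Hsp90ab1, Hsp90b1 and Cct2, gave 52.9% and 56.9% of it at 10–30 µm, 46.9% and 48.8% at 60–65 µm and 43.5% in GV oocytes. The summed RPKM of the DnaJ class A genes stayed between 49.7 and 53.5 in all 9 columns, whereas that of the organelle chaperones went from 209 and 201 to 126 and 129.

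**Figure D1:**
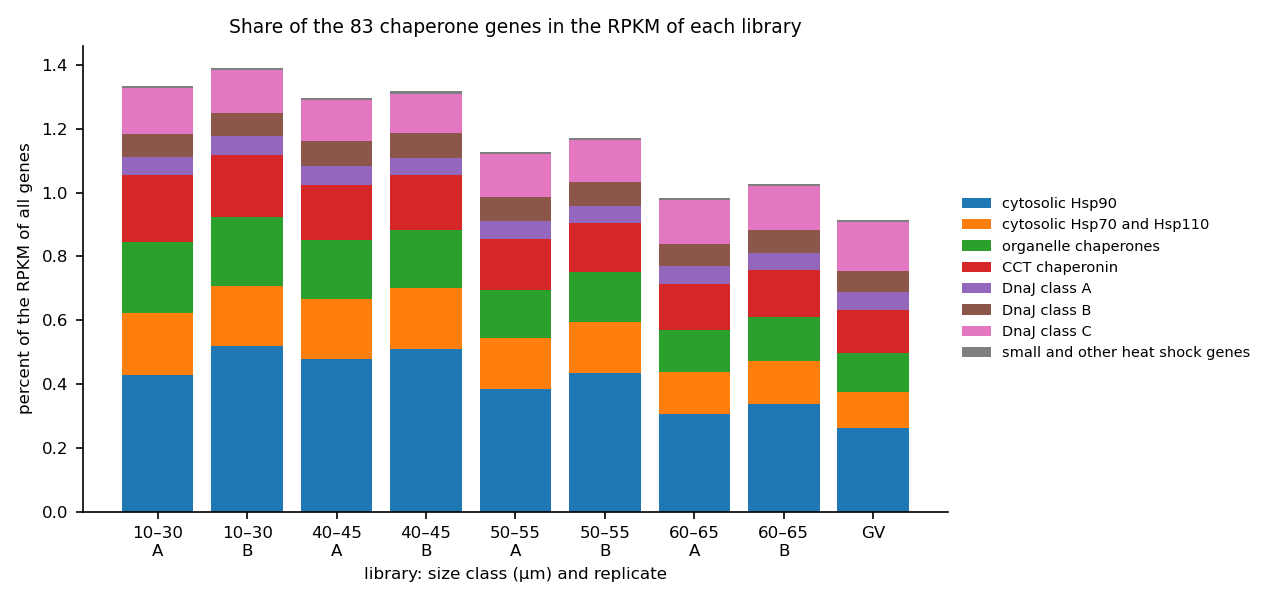
Share of the 83 chaperone genes in the RPKM of all genes, in percent, for each of the 8 libraries of growing oocytes and the GV column, with each bar divided by role. The bars go from 1.34% and 1.39% at 10–30 µm to 0.985% and 1.03% at 60–65 µm, mainly in the segments of cytosolic Hsp90, cytosolic Hsp70, the organelle chaperones and the CCT chaperonin.

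Over the whole of growth, from 10–30 to 60–65 µm, 13 of the 59 genes tested rose (22.0%) and 26 fell (44.1%), and 20 were not called. Among all genes tested, 31.6% rose and 31.7% fell. The median change of the chaperone genes was −0.13 on the log2 scale, against 0.002 for all genes tested. In all 39 genes that were called the libraries of the 2 classes did not overlap, as in 100% of all genes called. Changes past 2-fold were called in 4 genes that rose (Dnajb4, Hspa1a, Hspa1b and Hspb1) and 5 that fell (Cct6a, Dnajb9, Dnajc15, Hspa2 and Hspd1), out of 59, against 10.8% and 8.07% of all genes tested. Of the 24 genes with a mean of at least 10 RPKM over the 9 columns, 13 fell and 2 rose (Dnajc3 and Dnajc11), against 29.2% and 36.3% of all genes of that level. Of the 35 genes below that level 13 fell and 11 rose, against 32.2% and 30.6%. Fewer chaperone genes were called in either direction without library A of the 60–65 µm class. The share of all genes called in that fit is not given here, so the excess of falls cannot be judged in it.

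**Figure D2:**
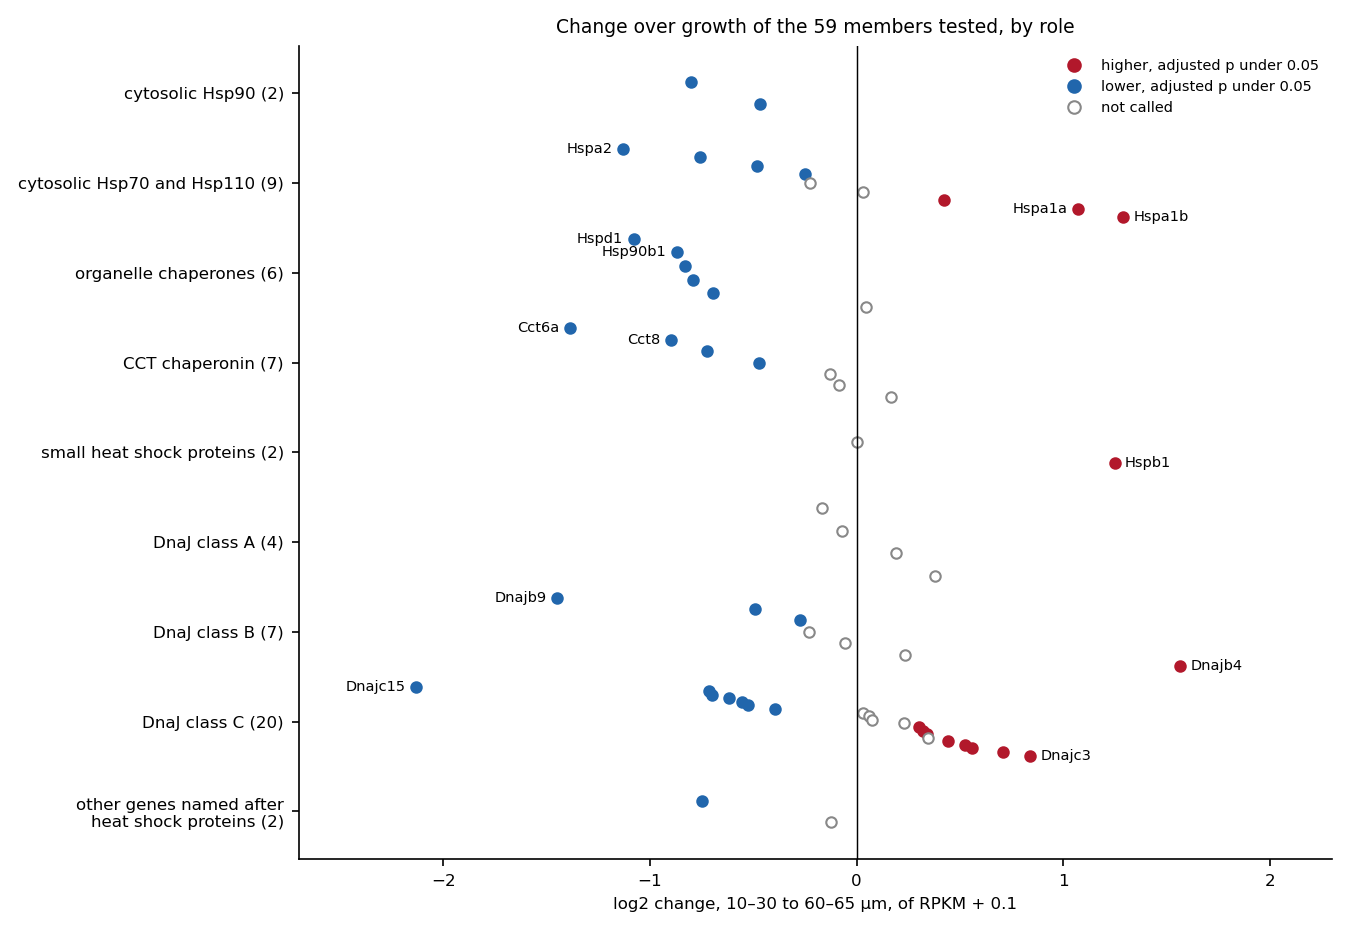
Change from 10–30 to 60–65 µm of the 59 genes tested, as log2 of RPKM plus 0.1, by role, with the number tested in parentheses. Each point is 1 gene, filled red (13 higher) or blue (26 lower) where the adjusted p was under 0.05 and open where it was not (20), and genes with a change of at least 0.83 in size are named. Organelle chaperones and both cytosolic Hsp90 genes lie to the left, and DnaJ class C spreads to both sides.

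The most abundant chaperone RNA was Hsp90aa1 (chr12:110690605-110702728 of GRCm38), which encodes the inducible form of cytosolic Hsp90. It measured 321 and 356 RPKM at 10–30 µm, 371 and 363 at 40–45 µm, 304 and 312 at 50–55 µm, 232 and 256 at 60–65 µm and 205 in GV oocytes. The 2 libraries of 40–45 µm were the highest, and the 60–65 µm libraries lay below all other growing oocytes. The fall from 10–30 to 60–65 µm was 1.38-fold (log2 change −0.47, SE 0.11, adjusted p = 0.0053, limma). It was no longer called without library A of 60–65 µm (log2 change −0.39, adjusted p = 0.058) or without the filter on low values (adjusted p = 0.0501).

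Hsp90ab1, the constitutive cytosolic Hsp90, differed between replicates more than its partner. It measured 85.0 and 127 RPKM at 10–30 µm, 80.3 and 120 at 40–45 µm, 57.3 and 91.6 at 50–55 µm, 57.2 and 61.5 at 60–65 µm and 38.2 in GV oocytes. Library B was above library A in each class, and the 50–55 and 60–65 µm libraries overlapped. The gene fell by 0.80 on the log2 scale over growth (SE 0.26, adjusted p = 0.023, limma), a call that was lost without library B of 10–30 µm (−0.56, adjusted p = 0.12), without either library of 60–65 µm (adjusted p = 0.111 and 0.0673), and without the filter on low values (adjusted p = 0.0627).

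Hspa8 encodes the constitutive Hsp70 of the cytosol, which takes part in folding, transport and the uncoating of clathrin. It measured 133 and 124 RPKM at 10–30 µm, 124 and 130 at 40–45 µm, 99.4 and 93.6 at 50–55 µm, 74.4 and 77.2 at 60–65 µm and 62.3 in GV oocytes. The 2 smaller classes overlapped, and each later class lay below the one before. Hspa8 fell 1.69-fold over growth (log2 change −0.76, SE 0.11, adjusted p = 0.00038, limma).

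Hspa2, the Hsp70 best known from meiotic male germ cells, was expressed at a much lower level and fell 2.19-fold, from 3.37 and 4.01 RPKM to 1.57 and 1.67 (log2 change −1.13, SE 0.14, adjusted p = 0.00016, limma). By contrast Hspa4, an Hsp110 that exchanges the nucleotide of Hsp70, measured between 27.3 and 30.8 RPKM in all 8 libraries of growing oocytes (log2 change 0.03, SE 0.10, adjusted p = 0.78, limma). Over the 9 cytosolic Hsp70 and Hsp110 genes tested, 3 rose (Hspa12a, Hspa1a and Hspa1b) and 4 fell (Hspa2, Hspa4l, Hspa8 and Hspa14), against 31.6% and 31.7% of all genes tested.

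Of the 6 organelle chaperones, 5 fell and none rose, against 31.7% and 31.6% of all genes tested. The exception was Hspa9, the Hsp70 of the mitochondrial matrix, which measured between 30.1 and 31.9 RPKM in all 9 columns (log2 change 0.05, SE 0.09, adjusted p = 0.66, limma). Its partners in the same compartment, the chaperonin Hspd1 (Hsp60) and the cochaperonin Hspe1 (Hsp10), which are divergent neighbours on chromosome 1 (chr1:55077835-55088243 and chr1:55088132-55091307), both fell. Hspd1 measured 32.5 and 34.1 RPKM at 10–30 µm, 22.9 and 24.3 at 40–45 µm, 16.9 and 18.0 at 50–55 µm, 15.5 and 15.9 at 60–65 µm and 13.8 in GV oocytes. No 2 classes overlapped, and the fall over growth was 2.11-fold (log2 change −1.08, SE 0.09, adjusted p = 2.3e-05, limma). Hspe1 went from 25.2 and 19.2 RPKM to 12.1 and 12.5 (log2 change −0.83, SE 0.15, adjusted p = 0.0017, limma). At 10–30 µm Hspd1 was thus above Hspa9 in RPKM in both libraries, and in every later column it was below it.

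In the endoplasmic reticulum, Hsp90b1 (GRP94) went from 70.8 and 73.0 RPKM to 38.3 and 40.3 (log2 change −0.87, SE 0.10, adjusted p = 0.00011, limma). Hspa5 (BiP), which holds incoming proteins and keeps the stress sensors inactive, went from 48.6 and 42.6 to 27.4 and 28.6 (log2 change −0.69, SE 0.12, adjusted p = 0.001, limma). Hspa13, a microsomal Hsp70, fell by 0.79 from 1.43 and 1.36 RPKM (SE 0.12, adjusted p = 0.00048, limma). Each of the 3 was lower in the 60–65 µm libraries than in any smaller class.

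**Figure D3:**
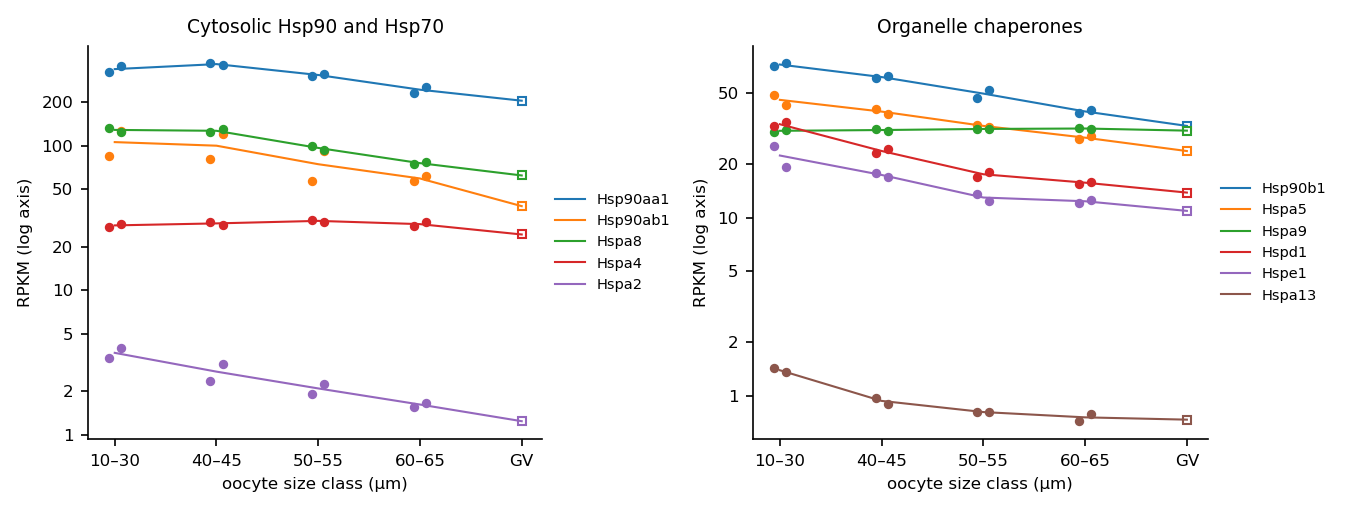
RPKM on a log axis of cytosolic Hsp90 and Hsp70 genes (left) and of organelle chaperones (right) by oocyte size class, with filled points for libraries A (left of the tick) and B (right of it), lines through the class means and open squares for the single GV column. Hspa4 and Hspa9 stay level, Hspa9 between 30.1 and 31.9 RPKM, while Hspa8, Hspd1, Hsp90b1, Hspa5, Hspe1, Hspa13 and Hspa2 go down.

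The CCT chaperonin is built of different subunits, each from its own gene, with Cct6a and Cct6b encoding 2 forms of the same one. Of the 9 genes of the rule, Cct8l1 was at 0 in every column and Cct6b did not exceed 0.0699 RPKM. The other 7 were all tested, and 4 fell (Cct2, Cct6a, Cct7 and Cct8) and none rose, against the same 31.7% and 31.6% of all genes tested. Tcp1, the subunit that the rule leaves out, also fell, from 26.7 and 23.7 RPKM to 15.3 and 16.4 (log2 change −0.66, SE 0.11, adjusted p = 0.00098, limma).

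Cct6a moved most among the subunits. It measured 21.3 and 18.7 RPKM at 10–30 µm, 12.3 and 12.6 at 40–45 µm, 9.33 and 9.32 at 50–55 µm, 7.16 and 7.97 at 60–65 µm and 4.95 in GV oocytes. No 2 classes overlapped, and the log2 change was −1.39 (SE 0.12, adjusted p = 2.5e-05, limma). Cct5, at the other end, measured 38.9 and 32.6 RPKM at 10–30 µm and 39.3 and 40.4 at 60–65 µm (log2 change 0.17, SE 0.12, adjusted p = 0.26, limma). Cct8 and Cct2 changed by −0.90 (SE 0.13) and −0.72 (SE 0.10), and Cct3, Cct4 and Cct7 by −0.08, −0.13 and −0.47. The order of the levels therefore differed between the ends of growth, with Cct2 highest at 10–30 µm (57.4 and 57.7 RPKM) and Cct5 highest at 60–65 µm, where Cct2 measured 33.3 and 36.3.

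In the first step of growth, Hspa1a, Hspa1b and Hspb1, all at low levels, and the more abundant Dnajb1 rose. They do not stand for all genes known for induction by heat, of which Hspd1 fell in that step (log2 change −0.43, adjusted p = 0.011, limma) and Hsp90aa1, Hsph1 and Hspe1 were not called (0.18, 0.09 and −0.28). Hspa1b measured 0.750 and 0.801 RPKM at 10–30 µm, 2.07 and 1.72 at 40–45 µm, 1.79 and 2.03 at 50–55 µm, 1.91 and 2.16 at 60–65 µm and 1.66 in GV oocytes. The 10–30 µm libraries were below all others, which overlapped from class to class. Hspa1a had the same course at a lower level, with 0.276 and 0.274 RPKM at 10–30 µm, 0.734 and 0.599 at 40–45 µm and 0.650 and 0.731 at 60–65 µm. The 2 genes are near-identical copies, so the division of reads between them is uncertain.

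Hspb1, which encodes the small heat shock protein Hsp27, measured 0.830 and 0.799 RPKM at 10–30 µm, 1.78 and 1.72 at 40–45 µm, 1.68 and 1.69 at 50–55 µm, 1.91 and 2.24 at 60–65 µm and 1.44 in GV oocytes. It too was lowest in the 10–30 µm libraries. In the step from 10–30 to 40–45 µm the 3 genes rose by 1.24 (Hspa1b, SE 0.13, adjusted p = 0.001, limma), 1.08 (Hspa1a, SE 0.14, adjusted p = 0.0023) and 1.07 (Hspb1, SE 0.12, adjusted p = 0.001) on the log2 scale. These calls held under every alternative that tested them.

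Dnajb1, the DnaJ protein of the heat shock response, was far more abundant at 10–30 µm, with 24.1 and 23.5 RPKM, and rose to 30.6 and 32.5 at 40–45 µm (log2 change 0.47, SE 0.10, adjusted p = 0.012, limma). It measured 27.1 and 28.7 RPKM at 60–65 µm and 22.1 in GV oocytes, and its change over the whole of growth was 0.23 (SE 0.10, adjusted p = 0.062, limma). Its call in the first step was lost without library A of 40–45 µm (log2 change 0.48, adjusted p = 0.0556) and in a fit of only the 4 libraries compared (0.47, adjusted p = 0.0707, limma). Of the other genes counted by symbol as small heat shock protein genes, Hspb11 did not exceed 1.12 RPKM and was not called over growth. Hspb2, Hspb3, Hspb6, Hspb7, Hspb8 and Hspb9 were near 0, with no value above 0.112 RPKM. RNA of factors that act on heat shock elements was present throughout, with Hsf1 between 5.25 and 7.74 RPKM and Hsf2 between 4.61 and 7.50. Their protein was not measured.

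**Figure D4:**
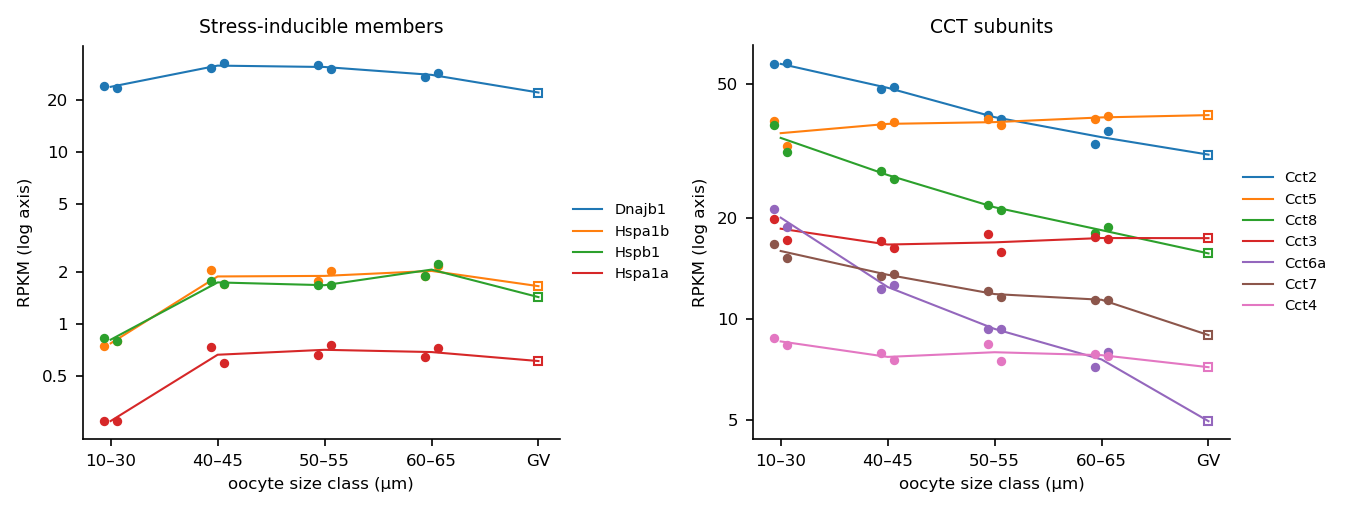
RPKM on a log axis of 4 genes known for induction by heat (left) and of the 7 CCT subunits tested (right) by oocyte size class, with filled points for libraries A and B, lines through the class means and open squares for the single GV column. Hspa1b, Hspb1 and Hspa1a step up between 10–30 and 40–45 µm, and among the subunits Cct6a goes from 21.3 and 18.7 to 7.16 and 7.97 RPKM while Cct5 stays level.

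In that first step 6 genes rose and 6 fell among the 59 (10.2% each way), against 12.9% and 10.2% of all genes tested. Besides the 4 genes above, Dnajc3 and Dnajc11 rose, and Cct6a, Dnajc15, Dnajc17, Hspa13, Hspbp1 and Hspd1 fell. Fewer were called in either direction without library A of 40–45 µm, a fit for which the share of all genes is not given here. Of the 12 calls only those of Hspa1a, Hspa1b, Hspb1, Cct6a and Dnajc15 held under every alternative that tested them. From 40–45 to 50–55 µm none rose and 3 fell (5.08%: Dnajc15, Hspa8 and Hspd1), against 5.71% and 3.35% of all genes. None of these 3 calls held under every alternative that tested them, and the count changed with the library left out. Deviations of same-lettered libraries correlated at 0.589 to 0.67 among the 3 smaller classes. A fit that took the letter into account called more genes in this step, in both directions. From 50–55 to 60–65 µm limma called no chaperone gene, and none of all genes tested (0% in either direction). There 11 of the 59 had an unadjusted p under 0.05, against 1443 of the 10518.

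The first and last steps share no library, so their difference could be tested. It was called for Hspa1b (log2 difference 1.18, SE 0.19, adjusted p = 0.027, limma), Hspa1a (1.14, SE 0.20, adjusted p = 0.035) and Hspb1 (0.82, SE 0.16, adjusted p = 0.046), all larger in the first step, and for no gene in the other direction. Of all genes tested, 1.61% were called larger in the first step and 0.618% smaller. With a pseudocount of 1 only 1 of the 3 calls was made, without the filter on low values none, and none without library A of 10–30 µm, library A of 40–45 µm or any one of the 50–55 and 60–65 µm libraries.

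The DnaJ proteins bring clients to Hsp70 and start its ATP cycle. Of the 45 genes, 31 were tested, 9 rose (29.0%) and 10 fell (32.3%), which is near the 31.6% and 31.7% of all genes tested. None of the 4 class A genes, which share the full set of domains of bacterial DnaJ, was called. In class B, 1 of 7 rose (Dnajb4) and 3 fell (Dnajb6, Dnajb9 and Dnajb11), and in class C, whose members share only the J domain, 8 of 20 rose and 7 fell.

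Dnajc15, a J protein of the mitochondrial inner membrane, fell most of all 59 genes. It measured 24.8 and 19.6 RPKM at 10–30 µm, 9.50 and 10.3 at 40–45 µm, 6.65 and 6.48 at 50–55 µm, 4.45 and 5.50 at 60–65 µm and 4.36 in GV oocytes. No 2 classes overlapped, and the fall was 4.38-fold (log2 change −2.13, SE 0.15, adjusted p = 1.6e-05, limma). Dnajc19, a related J protein of the same membrane, fell by 0.62 (SE 0.13, adjusted p = 0.0036, limma) from 1.49 and 1.29 RPKM, whereas Dnajc11, which belongs to the cristae-organizing complexes of mitochondria, rose from 11.2 ± 0.318 (SD, n = 2) to 18.3 ± 0.212 RPKM (log2 change 0.71, SE 0.10, adjusted p = 0.00038, limma).

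Dnajb4, a cytosolic partner of Hsp70, rose most. It measured 3.26 and 2.67 RPKM at 10–30 µm, 5.25 and 3.55 at 40–45 µm, 7.30 and 5.65 at 50–55 µm, 9.43 and 8.43 at 60–65 µm and 14.2 in GV oocytes. Successive classes did not overlap, and the rise was 2.96-fold (log2 change 1.57, SE 0.22, adjusted p = 0.00036, limma). Its level was thus below that of Dnajb1 in every column.

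Dnajb9 (ERdj4), of the endoplasmic reticulum, fell from 2.68 and 3.81 RPKM to 1.03 and 1.18 (log2 change −1.45, SE 0.15, adjusted p = 8.6e-05, limma). Dnajc3 (p58IPK), of the same compartment, rose from 8.86 and 8.40 to 15.5 and 15.4 (log2 change 0.84, SE 0.12, adjusted p = 0.00036, limma), and the 2 classes did not overlap in either gene. The 3 genes with a stress element in their promoter window therefore did not move together, since Hspa5 and Hsp90b1 fell and Dnajc3 rose. Dnajc5, the cysteine string protein of secretory vesicles, rose by 0.56 from 2.64 and 2.91 RPKM (SE 0.10, adjusted p = 0.0011, limma).

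Among the remaining genes named by size of change, Dnajc17, a J protein of the nucleus linked to splicing, fell by 0.71 from 6.62 and 5.92 RPKM (SE 0.12, adjusted p = 0.0011, limma). Dnajc24, which acts in the making of diphthamide, fell by 0.70 (SE 0.16, adjusted p = 0.0044), and Dnajc4 by 0.55 (SE 0.14, adjusted p = 0.0071). The call for Dnajc4 was lost without library A of 60–65 µm (adjusted p = 0.0563). Hspbp1, a nucleotide exchange factor of Hsp70, fell by 0.75 from 2.22 ± 0.169 RPKM (SD, n = 2) (SE 0.12, adjusted p = 0.00063).

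GV oocytes, with 1 column and no test, had levels near those of the 60–65 µm class. None of the 59 chaperone genes tested differed by more than 2-fold from both 60–65 µm libraries, on the scale of RPKM plus 0.1, and of all genes tested 0.2% were higher and 0.133% lower by that measure. Dnajc5b, below the expression filter, measured 0.280 and 0.136 RPKM at 60–65 µm and 0.773 in GV oocytes. Of the 59, 33 were below both 60–65 µm libraries in GV oocytes and 17 above both, against 46.2% and 35.1% of all genes tested. Of the 26 genes that fell over growth, 22 were below both, against 71.6% of all genes that fell, and of the 13 that rose, 7 were above both, against 58.9%. Relative to the 60–65 µm mean, the highest among genes of at least 2 RPKM in either were Dnajb4 (1.63-fold), Dnajc9, Dnajc3, Dnajc13 and Dnajc14, and the lowest were Hsp90ab1 (0.662-fold), Cct6a (0.678-fold), Hspb1, Dnajb2 and Cct7. Below that level, Hspbp1 was at 0.546-fold of the 60–65 µm mean, the lowest of the 59.

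The read number of a library was estimated from the steps between the RPKM values of single-exon genes, at 99400000 to 198000000 reads, and replicates correlated at Pearson's r of 0.986 to 0.995 over the genes tested. The libraries were then checked for other cells. The oocyte markers Gdf9, Bmp15, Zp1, Zp2, Zp3, Figla, Nobox, Ddx4, Dazl and Kit summed to between 2274 and 3326 RPKM. The sum of 8 granulosa markers rose with size, from 2.04 and 2.47 RPKM to 7.74 and 7.11 and 9.63 in GV oocytes, mainly in Nr5a2 and Cyp19a1, whereas the defining marker Foxl2 did not exceed 0.0642. Col1a1, of stroma, fell from 1.62 and 1.16 to 0.400 and 0.241 RPKM, Pecam1, of vessels, rose from 0.567 and 0.531 to 4.71 and 4.19 while Cdh5, the other vessel marker, did not exceed 0.0101, and the blood markers summed to at most 0.192. These levels moved over the same classes as the chaperone genes, and their part in the changes was not tested.

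The other genes of the same pathways were counted from lists. Of 4 heat shock factor genes tested, Hsf5, which passed the filter only through the later classes, rose from 0.398 ± 0.0877 (SD, n = 2) to 1.66 ± 0.231 RPKM (log2 change 1.83, SE 0.22, adjusted p = 0.00016, limma), while Hsf1 (0.30, adjusted p = 0.0448) and Hsf2 (−0.24, adjusted p = 0.0414) were near the threshold and lost their calls under 9 and 10 of 16 alternatives, and Hsbp1, which binds and restrains Hsf1, fell by 0.48 (SE 0.11, adjusted p = 0.0055). Of 22 cochaperones of Hsp70 and Hsp90, 5 rose and 8 fell over growth. For these counts the shares of all genes tested were 31.6% higher and 31.7% lower, near those of the cochaperones (22.7% and 36.4%). Fkbp5, an immunophilin of Hsp90, rose 3.4-fold (from 2.07 and 2.35 to 8.59 and 6.96 RPKM), and Bag1, an exchange factor, and Tomm70a, the receptor through which Hsp70 and Hsp90 hand proteins to mitochondria, fell by 1.02 and 0.92 on the log2 scale. Of 9 partners of the CCT chaperonin, 1 rose (Pdcl, whose call was lost without library B of 10–30 µm or either of 60–65 µm, with adjusted p up to 0.0778) and 3 fell, Vbp1, a prefoldin subunit, by 0.98 and Tcp1 among them. Of 10 mitochondrial chaperones and proteases, 1 rose (Afg3l2, not called without library A of 60–65 µm, adjusted p = 0.066) and 6 fell, Yme1l1, a protease of the inner membrane, by 1.42 and Clpp by 0.75.

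Of 20 genes of endoplasmic reticulum folding tested, 5 rose and 9 fell, against 31.6% and 31.7% of all genes tested. Xbp1, the transcription factor whose RNA is spliced by the sensor Ern1, fell 5.16-fold, from 4.41 and 4.75 to 0.715 and 0.902 RPKM (log2 change −2.37, SE 0.14, adjusted p = 7.2e-06, limma). Ern1 itself rose from 14.7 and 24.9 to 45.0 and 39.7 RPKM (log2 change 1.15, SE 0.21, adjusted p = 0.0017, limma). Atf4, of the parallel branch of the response, rose from 16.9 and 16.4 to 34.1 and 32.7 RPKM (log2 change 1.00, SE 0.11, adjusted p = 9.4e-05, limma). For each of the 3 genes the 10–30 and 60–65 µm libraries did not overlap.

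DNA methylation at the chaperone genes was measured from counts of methylated and unmethylated calls, at CpG positions with at least 5 reads. The start of a gene was taken as 500 bases on either side, and needed 5 such positions. In PBAT at 60–65 µm 81 of the 83 starts were measured, with a median of 3.69%, against 3.46% for all genes. The printed promoters lay in starts of 4.35% (Hspa1a, 76 positions), 4.45% (Hspa1b, 54), 1.47% (Hspb1, 42), 0.973% (Hspe1, 117), 4.01% (Hspa5, 62), 0.825% (Hsp90b1, 90) and 5.86% (Dnajc3, 128). Whether they rose or fell in RNA, these genes thus had starts of low methylation.

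A start of 25% or more was found for 2 genes (2.47%), against 4.96% of all gene starts. Dnajb7, a gene without introns that lies within Xpnpep3 and was at 0 RPKM throughout, measured 76.0% over 10 positions. Dnaja3, a mitochondrial J protein of 8.84 to 10.1 RPKM, measured 48.8% over 43 positions, but the expression table places its start at chr16:4639989, inside Coro7 and Vasn and 44081 bases upstream of the RefSeq start, where methylation was 3.66% over 53 positions. At RefSeq starts, a choice made after these values were seen, Dnajb7 alone was at 25% or more, and Hsp90aa1, whose start in the table had too few positions, measured 3.35% over 119.

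The RRBS libraries held too few positions at the start of Dnajb7 (at most 2) and, after 40–45 µm, of Dnaja3 (at most 4), so neither was measured there and the set of starts differed between classes. In RRBS the mean over the measured starts was 0.832% ± 0.0257 (SD, n = 2) at 40–45 µm, 0.959% ± 0.395 at 50–55 µm and 0.621% ± 0.0641 at 60–65 µm, and no measured start reached 25% in any of the 6 libraries, against 0.086% to 1.24% of all gene starts. The highest was 15.3%, for Dnajc10 in library B of 50–55 µm. With 1000 bases on either side the 60–65 µm mean was 1.30% ± 0.803 against 0.858% at 40–45 µm, and with positions of at least 1 read it was 1.51% against 0.856%, so that the order of these classes turned. No test was made between these means, for which a two-sided exact permutation test of 2 libraries against 2 cannot give a p below 0.333.

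Gene bodies differed more. The body was taken as the whole span of the gene in the expression table, so it includes the sequence just after the start. Of 68 chaperone genes of at least 4 kb, all with at least 10 positions in PBAT, 7 had a body methylation of 50% or more (10.3%), against 9.61% of all such genes, and the median was 18.5%, against 18.7%. Among genes tested for expression the median was 23.8% for the chaperone genes against 32.1% for all, and 11.5% against 14.6% were at 50% or more. Named after these values were seen, they were Hspbp1 (60.4%), Hspa14 (59.2%), Dnajc27 (56.2%), Dnajc1 (55.5%), Dnajc24 (54.6%), Dnajb2 (53.1%) and Hspa12a (52.4%). Among the 5 genes of highest mean level, the body was at 3.38% in Hsp90aa1 (138 positions), 7.81% in Hspa8 (48), 8.49% in Hsp90ab1 (104) and 9.13% in Hsp90b1 (109), below the median, and at 27.2% in Cct2 (106), above it. In Hsp90aa1 the window around the RefSeq start lay within the body and held 119 positions. Its body value therefore describes mostly that window and says little of the rest of the span. The median was 26.4% for the 9 measured genes that rose over growth, 20.7% for the 24 that fell and 23.1% for the 19 that were not called, with ranges that overlapped widely (12.1% to 55.5%, 2.55% to 60.4% and 2.69% to 53.1%).

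Where RRBS covered a body at 10 or more positions, some gained methylation over the classes. Hspbp1 had a mean of 7.33% at 40–45 µm, 22.8% at 50–55 µm, and 37.4% and 38.6% in the libraries of 60–65 µm. Hspa12a went from 2.55% through 15.9% to 26.6% ± 3.33 (SD, n = 2), and Dnajb2 from 0.327% through 3.55% to 10.6% ± 1.38. Dnajc13, at 48.2% in PBAT and so below 50%, went from 0.796% through 6.78% to 17.5% ± 3.12. Dnajc1 had no such gain, with 1.49%, 4.96% and 0.435%. Dnajc24 and Dnajc27 had too few positions in RRBS. Hspa14 measured 0.410%, 0.293% and 0.256% in RRBS, over 16 to 23 positions a library. Its 59.2% in PBAT was over 125 positions of the same span, which includes the start. The 2 methods need not have sampled the same positions, so the RRBS values do not show that the body as a whole stayed unmethylated.

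**Figure D5:**
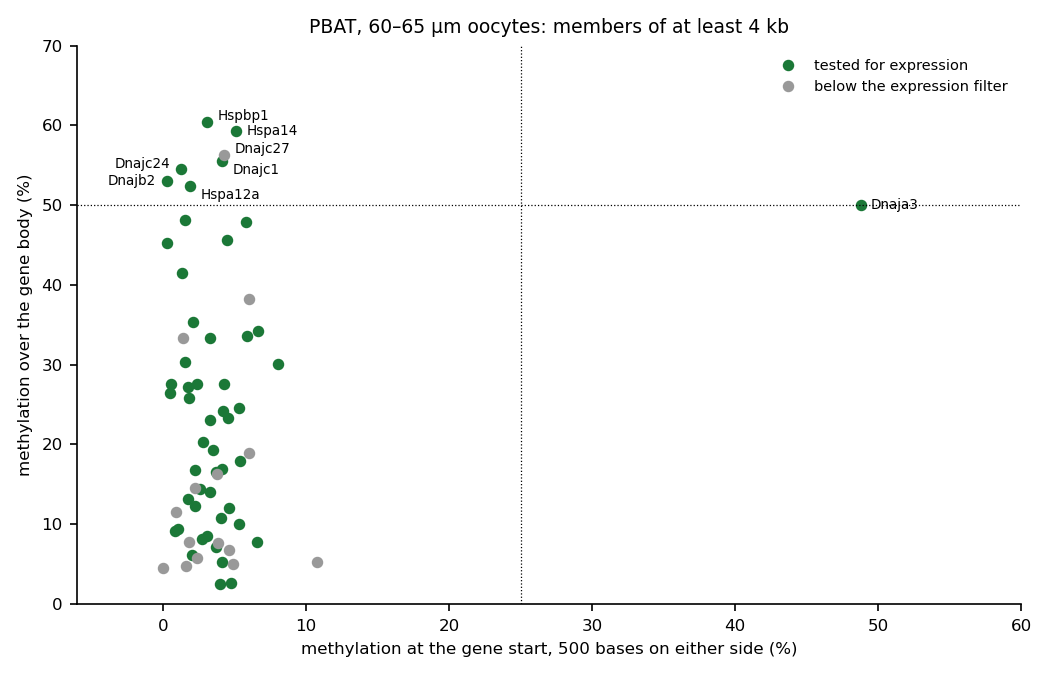
Methylation over the gene body against methylation at the gene start in the PBAT library of 60–65 µm oocytes, both in percent, for the 66 chaperone genes of at least 4 kb with both values, with green points for genes tested for expression and grey points for genes below the expression filter. Dotted lines mark 25% at the start and 50% over the body. Dnaja3 (48.8%) is the only gene to the right of the line, and bodies range from 2.55% to 60.4%.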

How the data were processed

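RNA-seq, RRBS and PBAT libraries of mouse oocytes were grouped by the size class in their labels. The authors trimmed reads with Trim Galore (0.2.8 and 0.3.5), mapped RNA reads to GRCm38 with TopHat2 2.0.9, which kept 1 alignment for a read with several, and deposited 1 RPKM table. The study's methods describe strand-specific libraries and name both Cufflinks and SeqMonk, and which of them made the deposited RPKM values, and with which strand setting, is not given in the sources used here. The authors mapped bisulphite reads with Bismark (0.10.0 and 0.14.0) and deposited, for each CpG position, counts of methylated and unmethylated calls and the percent methylated, and the counts were used here. Versions are those in the submitters' processing notes.

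RPKM values were scaled by a trimmed mean of ratios, log-transformed after adding 0.1 and tested with limma 3.58.1 (R 4.3.3), with a mean-dependent prior variance and all 8 growing-oocyte libraries in 1 fit. Adjusted p-values are by the Benjamini-Hochberg method over all 10518 genes tested. RPKM values are not counts, and depth was only estimated. The script was tested on simulated data, in which 196 of 200 changed genes were recovered with 9 false calls among 10518 genes. GV oocytes had 1 column and were given as folds. Methylation of a start or body was the unweighted mean of the percent methylated at its positions with at least 5 reads, computed in Python 3.11.15. Promoters are from RefSeq.

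The chaperone genes and the gene lists were chosen with earlier results of these data known. Named with values were, over growth, the 25 genes of largest change that passed the threshold without overlap, up to 8 by the same rule in each step, genes named for their role, the 5 of highest mean level, the 5 highest and 5 lowest in GV oocytes, those with a methylated start and, of each other list, the 3 of largest change together with Hsf1, Hsf2 and Tcp1. Genes called in a step or over growth were also listed by symbol. Alternatives were other pseudocounts, filters, scalings and sample sets, a replicate block, and other read minimums, windows and gene starts for methylation. Reads shared between near-identical copies, such as Hspa1a and Hspa1b, or with processed pseudogenes may be assigned to either. No protein sequences were used here.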

Additional observations from a re-analysis of the deposited data

Results flagged for a closer look

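Of the 59 genes tested, 3 changed differently in the first and the last step of growth, by a test of the difference itself (limma, Benjamini-Hochberg adjustment over all genes tested). Hspa1b rose more in the first step by 1.18 on the log2 scale (SE 0.19, adjusted p = 0.027). For Hspa1a, its near-identical copy, the difference was 1.14 (SE 0.20, adjusted p = 0.035). Hspa1a was below 0.5 RPKM at 10–30 µm and passed the expression filter only through the later classes, so its call adds no support. For Hspb1 it was 0.82 (SE 0.16, adjusted p = 0.046). In each gene both libraries of 40–45 µm lay above both of 10–30 µm, while the last step gave log2 changes of 0.06, −0.06 and 0.25, with adjusted p-values of 0.883, 0.892 and 0.394. The calls were not stable, as no gene was called without library A of 10–30 µm, library A of 40–45 µm or any one library of the 2 larger classes.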

How the results depend on the processing

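Over the whole of growth, 24 of the 28 chaperone genes that were named with values and called kept their call under every alternative that tested them, and no named gene changed its direction there. Hsp90ab1, Hsp90aa1, Dnajc4 and Dnajc14 lost it under 4, 2, 1 and 2 alternatives, with adjusted p-values of up to 0.12, 0.0582, 0.0563 and 0.0714. Leaving out each library in turn gave 9 to 15 genes higher and 17 to 25 lower, and a filter of at least 2 RPKM gave 7 higher. In the first step, leaving out each library gave 3 to 7 higher and 2 to 8 lower, and a fit of only the 4 libraries compared gave 3 and 2. From 40–45 to 50–55 µm the leave-one-out counts were 0 to 1 higher and 0 to 9 lower, and without the filter on low values 1 was lower. For the difference between the first and the last step they were 0 to 2 higher and 0 to 1 lower, and the count higher was 1 with a pseudocount of 1, 0 without the filter and 1 with a filter of at least 2 RPKM. The causes of these shifts were not tested. Shares of all genes called under these alternatives are not given here, so the counts cannot be set against the shares of the main fit.

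The replicate letters A and B were tried as a replicate block. Deviations of same-lettered libraries correlated at 0.589 to 0.67 among the 3 smaller classes, but at −0.227, −0.025 and 0.113 between these and the 60–65 µm class, so the letters were not taken as pairs throughout. The block gave 10 genes lower and 3 higher from 40–45 to 50–55 µm. The share of all genes called under the block is not given here, so these counts cannot be set against the shares of the main fit. In PBAT, 1 gene start was at 25% or more with positions of at least 10 reads, and 1 with the gene starts of RefSeq, an alternative chosen after seeing the data. The mean start methylation in RRBS at 40–45 µm was 0.757% with at least 10 reads and 0.858% with 1000 bases on either side, and from 0.813% to 0.850% with 1 library left out. At 50–55 µm it was 1.89% with at least 1 read and 0.680% to 1.24% with 1 library left out. At 60–65 µm it was 1.51% with at least 1 read, 1.30% with 1000 bases and 0.576% to 0.667% with 1 library left out. With 2 libraries a class and 1 column for GV oocytes, small changes such as those of Hsf1 and Hsf2 lie near what the test can call.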
